A study of Mus musculus with 12 samples.

Results

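Tcf24, Btg1, Ppp1r3c and Cd44 were 4 genes with higher mRNA expression in pancreatic islets of pregnant mice without the prolactin receptor (PRLR) than in islets of pregnant wild type mice. They were chosen by that comparison on gestational day 9.5 (P9.5), as genes at least 1.5-fold higher in Prlr-/- islets with a Benjamini-Hochberg adjusted p under 0.05 in limma. The array has 19938 genes for which at least 1 probe set is theirs alone. Of these, 5 passed this way, beside 0.0253% of all probe sets, and 4 of the 5 are described here. Each had 1 probe set whose annotation names that gene alone. The question followed through the 4 groups of arrays was whether each gene was lowered by pregnancy in wild type islets or raised by pregnancy in islets without the receptor.

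Islets of 129Sv mice were measured on 12 Affymetrix MoGene_1.0_ST arrays, with 3 biological replicates in each group. The groups were non-pregnant (NP) Prlr+/+ mice, P9.5 Prlr+/+ mice, NP Prlr-/- mice and P9.5 Prlr-/- mice, all adult; how many animals gave the islets of 1 array is not stated in the sources used here. The Prlr-/- mice lack the receptor in the whole body and are sterile, and the study gave the pregnant ones progesterone pellets so that embryos implanted. Genotype and pellet therefore cannot be told apart at P9.5. Nor can pregnancy and pellet be told apart in any difference between P9.5 and NP Prlr-/- islets, which is called a difference with pregnancy below. Expression is given as the deposited log2 value of robust multichip analysis (RMA), rounded to 0.1, so that a difference of 1 is a 2-fold difference in signal. No probe set is annotated to Prlr alone, and the loss of the targeted gene was not checked here.

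The prolactin receptor is a cytokine receptor for prolactin and placental lactogen. When bound it activates the kinase JAK2 and the transcription factor STAT5, and in beta cells during pregnancy this pathway is known for driving proliferation and higher insulin output. The 4 genes act in different processes. Tcf24 encodes a basic helix-loop-helix (bHLH) transcription factor. Btg1 encodes an antiproliferative protein of the BTG/TOB family, which binds the CCR4-NOT deadenylase that shortens mRNA tails. Ppp1r3c encodes a subunit (also called PTG) that brings protein phosphatase 1 to glycogen and so favours glycogen synthesis. Cd44 encodes a cell surface receptor for hyaluronan, a sugar polymer of the extracellular matrix.

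Because the 4 genes were chosen for 1 direction at P9.5, the 250 bases before their start sites are shown to see what the promoters share. RefSeq (build GRCm38.p6) gave a start site for 3 of the 4 members, Btg1, Ppp1r3c and Cd44, and none is printed for Tcf24. Capitals mark matches to the motifs searched on both strands, which were TTCNNNGAA (STAT5), GTAAACA (FOXO factors), ACGTG (HIF-1) and AGAACA (a steroid receptor half-site). The FOXO motif was added after the Btg1 promoter had been seen. The windows are Btg1 at chr10:96616751-96617000 on the plus strand, Ppp1r3c at chr19:36736605-36736854 on the minus strand and Cd44 at chr2:102901666-102901915 on the minus strand.
Btg1: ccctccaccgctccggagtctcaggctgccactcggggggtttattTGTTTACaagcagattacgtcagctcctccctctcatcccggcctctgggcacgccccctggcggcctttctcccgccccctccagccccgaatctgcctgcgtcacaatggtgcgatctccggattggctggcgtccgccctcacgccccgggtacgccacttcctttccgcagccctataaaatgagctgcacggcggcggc
Ppp1r3c: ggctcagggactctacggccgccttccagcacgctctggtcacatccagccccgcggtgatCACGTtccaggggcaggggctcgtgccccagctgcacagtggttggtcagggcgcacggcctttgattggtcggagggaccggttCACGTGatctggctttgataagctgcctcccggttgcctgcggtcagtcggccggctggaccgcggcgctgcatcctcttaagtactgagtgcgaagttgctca
Cd44: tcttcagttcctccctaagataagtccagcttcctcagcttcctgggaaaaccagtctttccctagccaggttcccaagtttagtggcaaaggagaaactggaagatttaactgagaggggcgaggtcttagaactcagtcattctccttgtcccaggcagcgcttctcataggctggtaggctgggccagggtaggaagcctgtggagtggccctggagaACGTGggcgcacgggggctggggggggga

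No motif of the 4 was in all 3 promoters. Btg1 held the FOXO letters on the minus strand, 204 bases before the start, as do 3.17% of 32851 mouse promoters of this length. Ppp1r3c held the HIF-1 letters at 3 places, of which those 104 and 103 bases before the start overlap in a palindrome and the third lies 189 bases before the start. Cd44 held them once, 29 bases before the start, and 16.6% of all promoters hold them. The STAT5 letters (7.02% of promoters) and the steroid half-site (16.1%) were not in these 3 windows. The GC content was 65.2% in Btg1, 64.4% in Ppp1r3c and 56.4% in Cd44, against a median of 52.4% over all promoters.

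One array stood apart from the other 11. Prlr+/+ P9.5 replicate 2 had an Xist value of 3.8, against 10.0 to 10.7 in the others, while the Y-linked genes Kdm5d, Uty and Eif2s3y lay between 3.1 and 4.6 in all 12 arrays. The members' differences that use it, and the related genes called at P9.5, are given with and without it; the marker means, correlations and nearest genes are given with all arrays. All member values, from 5.1 upwards, were above these Y-linked values, which show the signal of genes that a female islet lacks. The array medians were 5.7 to 5.9, and Ppp1r3c lay below this range in every group but P9.5 Prlr-/-. Whether it was detected in those groups was not tested. By mean level Btg1 was at the 97.2nd percentile of all 35511 probe sets, Cd44 at the 69.1st, Tcf24 at the 62.4th and Ppp1r3c at the 42.2nd.

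Cd44 was at 6.6, 6.8 and 6.8 in NP Prlr+/+ islets and at 6.8, 6.7 and 6.6 in P9.5 Prlr+/+ islets. In Prlr-/- islets it was at 6.6, 6.5 and 6.5 without pregnancy and at 7.3, 7.3 and 7.6 at P9.5. All 3 arrays of pregnant Prlr-/- islets lay above the 9 others, while the 2 Prlr+/+ groups covered the same range. Pregnancy went with a log2 difference of 0.87 (standard error 0.108) in Prlr-/- islets, a 1.82-fold higher level, and of -0.03 in Prlr+/+ islets. Of all probe sets, 2.85% had a difference as high or higher in Prlr-/- islets. The order of the means was 7.40 ± 0.17 (SD, n = 3) in P9.5 Prlr-/-, 6.73 ± 0.12 in NP Prlr+/+, 6.70 ± 0.10 in P9.5 Prlr+/+ and 6.53 ± 0.06 in NP Prlr-/- islets, and the last 3 share the value 6.6.

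Tcf24 showed a similar pattern over the groups. It was at 6.1, 6.2 and 6.7 in NP Prlr+/+ islets and at 6.1, 6.1 and 6.1 in P9.5 Prlr+/+ islets. Without the receptor it was at 6.3, 6.1 and 6.5 without pregnancy and at 7.0, 7.0 and 7.1 at P9.5. Again the 3 pregnant Prlr-/- arrays were above all others, and the 3 remaining groups overlapped at 6.1. The difference with pregnancy was 0.73 (standard error 0.148) in Prlr-/- islets, or 1.66-fold, and 5.23% of all probe sets had a difference as high or higher. In Prlr+/+ islets it was -0.23, with the same standard error, and NP replicate 3 alone sets most of it, since the value was -0.05 without that array.

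Ppp1r3c differed from these in that its level was already a little higher in Prlr-/- islets without pregnancy. It was at 5.2, 5.3 and 5.1 in NP Prlr+/+ islets and at 5.2, 5.1 and 5.3 in P9.5 Prlr+/+ islets. Islets lacking the receptor had 5.5, 5.6 and 5.4 without pregnancy and 5.9, 5.7 and 6.1 at P9.5. The Prlr+/+ groups held the same 3 values, the NP Prlr-/- arrays lay above them by at least 0.1, which is the step of rounding, and the P9.5 Prlr-/- arrays lay highest. The mean was 5.20 ± 0.10 (SD, n = 3) in both Prlr+/+ groups, 5.50 ± 0.10 in NP Prlr-/- and 5.90 ± 0.20 in P9.5 Prlr-/- islets. The difference with pregnancy was 0.00 in Prlr+/+ islets and 0.40 (standard error 0.115; 1.32-fold) in Prlr-/- islets, and 17.0% of all probe sets had a difference as high or higher in the latter.

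Btg1 was the only member of which every P9.5 Prlr+/+ array lay below every array of the other groups. It was at 10.0, 9.8 and 9.8 in NP Prlr+/+ islets and at 9.3, 9.6 and 9.5 in P9.5 Prlr+/+ islets. The Prlr-/- values were 10.0, 9.9 and 9.8 without pregnancy and 10.0, 10.3 and 10.3 at P9.5. The P9.5 Prlr+/+ arrays were thus separate at the low end, whereas P9.5 Prlr-/- replicate 1 had the same value as the highest NP arrays. The difference with pregnancy was -0.40 (standard error 0.118; 1.32-fold lower) in Prlr+/+ islets and 0.30 with the same standard error in Prlr-/- islets. Of all probe sets, 11.7% were as low or lower in Prlr+/+ islets and 22.6% as high or higher in Prlr-/- islets. The means were 10.20 ± 0.17 (SD, n = 3) in P9.5 Prlr-/-, 9.90 ± 0.10 in NP Prlr-/-, 9.87 ± 0.12 in NP Prlr+/+ and 9.47 ± 0.15 in P9.5 Prlr+/+ islets, and the NP groups did not differ beyond their spread.

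**Figure D1:**
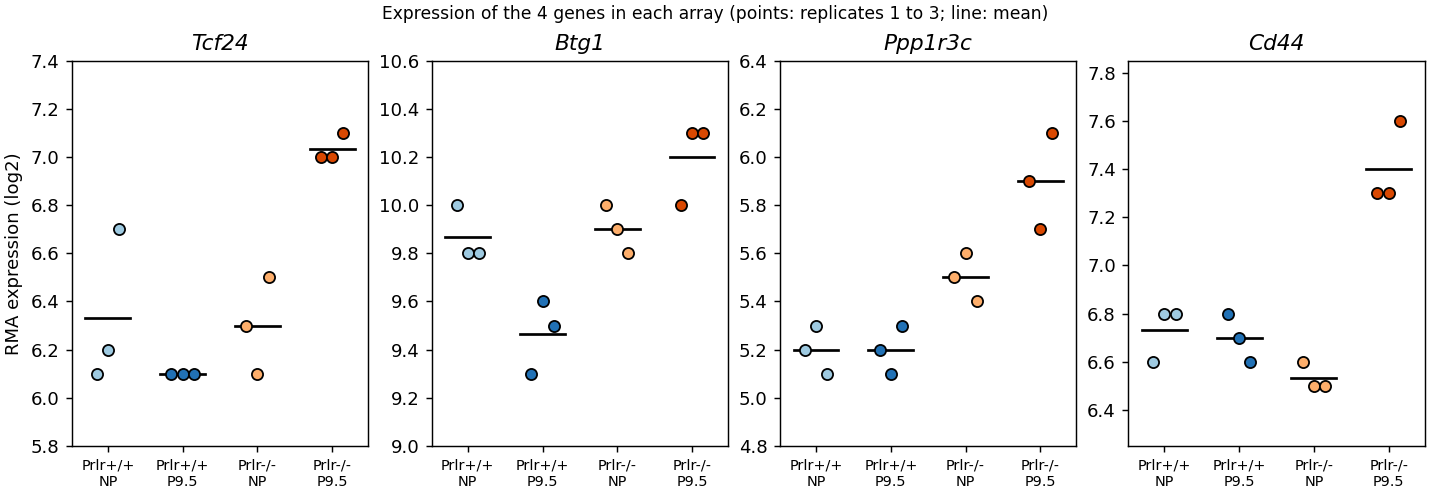
RMA log2 expression (vertical axis, each spanning the same number of log2 units) of the 4 genes in the 12 arrays, by genotype and stage (horizontal axis); points are replicates and lines are group means. The P9.5 Prlr-/- arrays of Cd44 (7.3 to 7.6) and Tcf24 (7.0 to 7.1) are above all others, whereas for Btg1 the P9.5 Prlr+/+ arrays (9.3 to 9.6) are the lowest.

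Of the 4 members, 3 had P9.5 Prlr-/- arrays that all lay above the NP Prlr-/- arrays (Cd44, Tcf24 and Ppp1r3c), beside 19.4% of all probe sets. By size, 2 members were at least 1.5-fold higher with pregnancy in Prlr-/- islets (Cd44 and Tcf24), beside 8.76% of all probe sets. In Prlr+/+ islets 1 member had P9.5 arrays that all lay below the NP arrays (Btg1), beside 17.3% of probe sets, and 0 members were at least 1.5-fold lower, beside 4.93%. These counts use the P9.5 arrays that chose the members, so they describe the members and no test is given. The same holds where a P9.5 group of a member lay apart from all other arrays, since the choice had already set the P9.5 groups apart. How many of all probe sets have a group apart in this way was not counted. The median difference with pregnancy was 0.57 over the members in Prlr-/- islets and -0.13 in Prlr+/+ islets, and that of all probe sets was -0.07 in both.

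**Figure D2:**
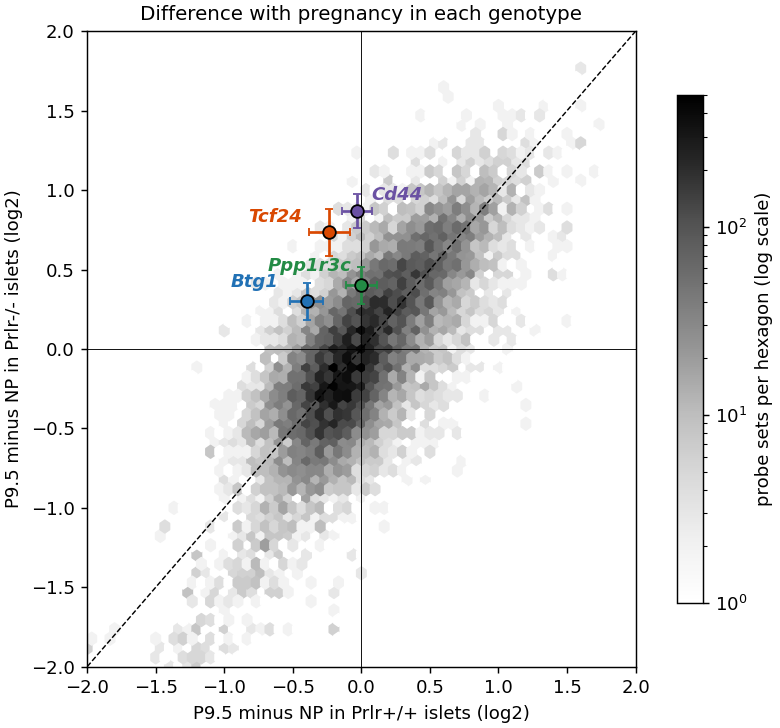
Log2 difference between P9.5 and NP islets in Prlr+/+ (horizontal axis) and Prlr-/- mice (vertical axis) for all probe sets (grey hexagons, darker where they hold more, log scale) and for the 4 genes (coloured, bars are standard errors); equal differences fall on the dashed line. All 4 genes lie above the line, Cd44 at -0.03 and 0.87, and Btg1 at -0.40 and 0.30.

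The genotype differences at P9.5, Prlr-/- minus Prlr+/+, by which the members were chosen, were 0.93 for Tcf24 (1.91-fold), 0.73 for Btg1 (1.66-fold) and 0.70 for both Ppp1r3c and Cd44 (1.62-fold). The genotypes did not overlap at P9.5 in any of the 4, beside 3.16% of all probe sets that did not overlap with Prlr-/- higher; the members were chosen for this difference, and nothing is read from that count. Each is the sum of the NP difference, the amount by which P9.5 exceeded NP in Prlr-/- islets and the amount by which P9.5 was below NP in Prlr+/+ islets. For Btg1 these were 0.03, 0.30 and 0.40, each with a standard error of 0.118, so which part was largest is not settled. When each array was centred on its median, the differences of Btg1 with pregnancy were -0.33 in Prlr+/+ and 0.47 in Prlr-/- islets. Without P9.5 Prlr-/- replicate 1 they were -0.40 and 0.40. For Ppp1r3c the parts were 0.30, 0.40 and 0.00. For Cd44 the 0.87 in Prlr-/- islets was more than the whole difference, since its NP level was lower in Prlr-/- islets by 0.20.

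Over all probe sets, 9 were called higher at P9.5 in Prlr-/- islets, and 0.206% were called lower. Of the 9, 4 have no gene symbol and the fifth named gene was Pcsk1n, which encodes proSAAS, a proprotein convertase inhibitor of endocrine cells. Pcsk1n lay just inside the thresholds (0.63) and had negative differences with pregnancy in both genotypes, -1.07 in Prlr+/+ and -0.50 in Prlr-/- islets. Just outside, on the adjusted p, were Pde10a, a cyclic nucleotide phosphodiesterase (1.07), Lyve1, a hyaluronan receptor of lymphatic vessels and macrophages (1.07), and AI182371 (0.60). Pde10a was like Cd44 in its difference with pregnancy, at 1.00 in Prlr-/- and -0.17 in Prlr+/+ islets. The 60 genes called lower at P9.5 in Prlr-/- islets had a median difference with pregnancy of 1.15 in Prlr+/+ and 0.13 in Prlr-/- islets, as against -0.13 and 0.57 over the 4 members; both sets were chosen on the P9.5 arrays, and the contrast between them was not tested.

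Without Prlr+/+ P9.5 replicate 2, the array with the low Xist value, the genotype difference at P9.5 was 0.93 for Tcf24, 0.80 for Btg1, 0.65 for Ppp1r3c and 0.70 for Cd44. The difference with pregnancy in Prlr+/+ islets was then -0.23, -0.47, 0.05 and -0.03 in the same order. The mean differences with pregnancy over both genotypes were 0.25, -0.08, 0.23 and 0.42. The sizes thus stayed close to those with the array, but with 11 arrays only 1 of the 4 members (Btg1) was past both thresholds by which they had been chosen.

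The genotype difference in NP islets was not part of the choice of members. Its standard error, however, comes from the fit over all 12 arrays that also entered the choice, so its p-values are not fully independent of it. In NP islets 0 of the 4 members passed (adjusted p under 0.05 in limma and at least 1.5-fold), where 0.0929% of all probe sets passed as higher and 0.00845% as lower in Prlr-/- islets; 1 member had an unadjusted p under 0.05. The difference was -0.03 for Tcf24 (standard error 0.148, adjusted p = 0.930 in limma), 0.03 for Btg1 (standard error 0.118, adjusted p = 0.928) and -0.20 for Cd44 (standard error 0.108, adjusted p = 0.488). The genotypes overlapped in these 3 genes. Ppp1r3c was 0.30 higher in Prlr-/- islets (standard error 0.115), and its genotypes did not overlap, as in 6.47% of probe sets. Its unadjusted p in limma was 0.0233 and its adjusted p 0.319, so the difference did not pass the correction over all probe sets. When each array was centred on its median, the difference was 0.20.

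The mean difference with pregnancy over both genotypes contains the P9.5 arrays that chose the members and is given as a description. In it 0 of the 4 members were past both thresholds in limma, beside 6.72% of probe sets called higher and 4.85% called lower at P9.5. Cd44 had a mean difference of 0.42 (standard error 0.0764), which is 1.33-fold and under the fold minimum. Tcf24 had a mean difference of 0.25 (standard error 0.105), Ppp1r3c of 0.20 (standard error 0.0813) and Btg1 of -0.05 (standard error 0.0836). The opposite signs of Btg1 in the genotypes left no mean difference larger than its error.

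Over the 12 arrays the 4 genes shared the high P9.5 Prlr-/- group for which they were chosen, so a positive correlation between them was fixed by the choice. Pearson's r between pairs of members was 0.59 (Btg1 and Cd44) to 0.86 (Tcf24 and Cd44) over all arrays, which also share normalization. After each group's mean was taken off, r lay between -0.35 (Tcf24 and Ppp1r3c) and 0.40 (Ppp1r3c and Cd44). Taken over all groups, arrays that were high within their group in one member were therefore not regularly high in another. In the P9.5 Prlr-/- group, however, replicate 3 was the highest or tied for it in each member.

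The genes most like each member were named by Pearson's r over the 12 arrays, among 16263 genes with a range of at least 0.5. For Cd44 they were Pde10a (r = 0.92), Relt (0.92), AI182371 (0.92), Gstz1 (0.92) and Lmo3 (0.91). For Tcf24 they were Relt (0.92), Cdkn1b (0.88), Pde10a (0.88), Rgs9 (0.87) and Cd44 itself (0.86), so that Relt, a receptor of the tumour necrosis factor family, and Pde10a were in both lists. Cdkn1b encodes the cell cycle inhibitor p27. It was at 8.23 in both P9.5 Prlr+/+ and NP Prlr-/- islets and at 8.60 in P9.5 Prlr-/- islets.

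For Btg1 the nearest were Tmc7 (r = 0.89), Fam110b (0.85), Ldlrad4 (0.85), Ctnnb1 (0.84) and H4c8 (0.83). Tmc7, a transmembrane channel-like gene, had a difference with pregnancy of -0.47 in Prlr+/+ and 0.03 in Prlr-/- islets, and Ctnnb1, which encodes beta-catenin, of -0.20 and 0.20. For Ppp1r3c they were Zfp947 (0.89), Dnaja4 (0.86), Atp6v0e2 (0.85), Aldh4a1 (0.85) and Hspa8 (0.84). Dnaja4 and Hspa8 encode chaperones of the heat shock families. H4c8, a histone gene, and Hspa8 have near-identical copies, so their probe sets may read several genes. Their NP means were higher in Prlr-/- than in Prlr+/+ islets, at 8.10 against 8.0 for Dnaja4 and at 12.10 against 11.83 for Hspa8, and the P9.5 Prlr-/- means were the highest, at 8.37 and 12.30. The nearest genes of Cd44 and Tcf24 overlapped, whereas those of Btg1 and Ppp1r3c shared no gene with another member's.

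**Figure D3:**
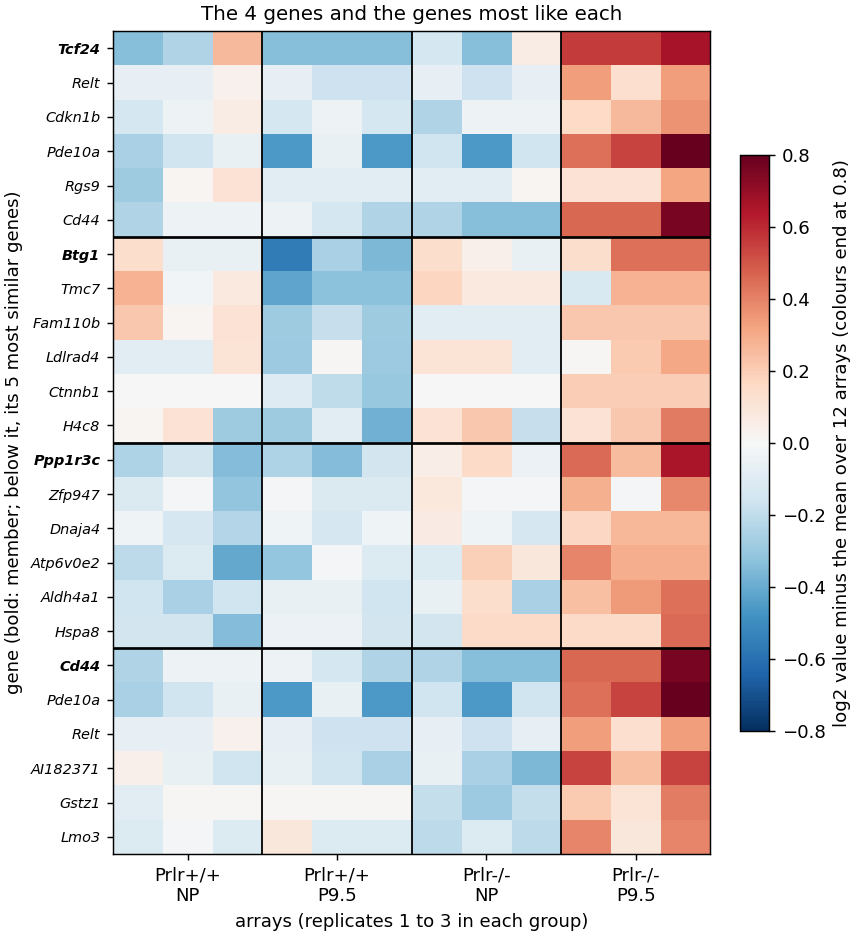
Log2 expression of each member (bold) and its 5 most similar genes (rows) in the 12 arrays (columns, 3 replicates in each group), with each gene's mean over the arrays subtracted; red is above and blue below that mean, and colours end at 0.8. In the Tcf24 and Cd44 blocks the high values are in the P9.5 Prlr-/- arrays, and in the Btg1 block the low values are in the P9.5 Prlr+/+ arrays.

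Related genes were taken from 9 lists with 226 genes, of which 214 were measured. Some lists hold partners, family or pathway genes of the members. The others hold FOXO and HIF-1 target genes, genes induced by glucocorticoids and progestins, immediate early and stress genes, and cell cycle genes. At P9.5, 0 of the 214 were higher in Prlr-/- islets and 4 were lower, so that no gene of these lists was called in the members' direction with all arrays. In NP islets 0 were called either way. At an unadjusted p under 0.05 in limma there were 23 at P9.5 and 29 in NP islets. With pregnancy, 17 rose and 13 fell in Prlr+/+ islets, where 5.73% of all probe sets were called higher and 4.21% lower. In Prlr-/- islets 27 rose and 6 fell, beside 7.44% and 7.09%. The 2 comparisons with pregnancy share no array, but each shares its P9.5 arrays with the genotype comparison.

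Among 28 measured genes of hyaluronan and CD44 partners, 2 were lower in Prlr-/- islets at P9.5. These were Cemip2, a cell surface hyaluronidase (-0.63, adjusted p = 0.0244 in limma), and Ezr, which encodes ezrin and links CD44 to actin (-0.60, adjusted p = 0.0154). The largest differences in the direction of Cd44 were those of Lyve1 (1.07, adjusted p = 0.0733) and Hapln1, which links hyaluronan to proteoglycans (1.03, adjusted p = 0.132), and they did not pass. Without Prlr+/+ P9.5 replicate 2, Hapln1 passed as higher (1.28, adjusted p = 0.0279), and Cemip2 (-0.53, adjusted p = 0.0842) and Ezr (-0.60, adjusted p = 0.067) no longer passed. The list's median was 0.05, and that of all probe sets was 0.00. With pregnancy 5 genes of the list rose in Prlr-/- islets, as Cd44 did by value. They were Hapln1 (1.87), Srgn, the core protein serglycin (1.03), Hmmr, a hyaluronan receptor of dividing cells (0.87), Adam10, a protease that cleaves CD44 (0.70), and Cd24a (0.63). In Prlr+/+ islets Srgn (0.83) and Ezr (0.70) rose, and Cd74 (-0.77), Lyve1 (-0.73) and Cemip (-0.70) fell. Hapln1 was at 7.77 in NP Prlr+/+, 7.70 in P9.5 Prlr+/+, 6.87 in NP Prlr-/- and 8.73 in P9.5 Prlr-/- islets.

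Of 14 measured genes of the BTG/TOB family and its deadenylase partners, 0 passed at P9.5, with Cnot8 (0.27), Cnot7 (0.23) and Btg2 (0.20) the largest in size. In Prlr+/+ islets, where Btg1 was lower with pregnancy by value, 2 rose, Prmt1, an arginine methyltransferase that binds BTG proteins (0.70), and Cnot6, a deadenylase (0.63). In Prlr-/- islets 3 rose, all subunits of CCR4-NOT, namely Cnot9 (0.77), Cnot6 (0.73) and Cnot2 (0.67). Of the 26 measured cell cycle genes, 0 passed at P9.5. With pregnancy 2 rose in Prlr+/+ islets, Pcna, the sliding clamp of DNA replication (1.03), and Ccne2 (0.70). In Prlr-/- islets, where Btg1 was highest, 7 rose, among them Top2a (1.43), Ccne2, which encodes cyclin E2 (1.20), Pcna (1.03) and Mki67 (0.83).

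Of 24 measured FOXO target genes, 1 passed at P9.5, the growth arrest gene Gadd45a, which was lower in Prlr-/- islets (-1.23, adjusted p = 0.0072 in limma) and passed also without Prlr+/+ P9.5 replicate 2 (-1.32, adjusted p = 0.0207). It rose by 1.67 with pregnancy in Prlr+/+ islets. The transcriptional repressor Bcl6 fell with pregnancy in Prlr+/+ islets (-1.13, adjusted p = 0.00966) and rose in Prlr-/- islets (0.77, adjusted p = 0.0397). Unlike Btg1, its NP means were apart, at 6.70 in Prlr+/+ and 5.70 in Prlr-/- islets (-1.0, adjusted p = 0.175), and its difference at P9.5 (0.90, adjusted p = 0.489) did not pass either. In this list Irs2 (-0.67) and G6pc (-0.60) also fell in Prlr+/+ islets, and Sod2 (0.63) rose and G6pc (-0.77) fell in Prlr-/- islets.

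Of 30 measured glycogen genes, 0 passed at P9.5, and the 3 largest in size, Pgm2 (-0.20), Pygb (0.20) and Ppp1r3a (0.17), were well below the 0.70 of Ppp1r3c. With pregnancy in Prlr+/+ islets Ppp1cc, a catalytic subunit of protein phosphatase 1, rose (0.80), and Gaa, the lysosomal glucosidase (-0.80), and Gsk3a, a kinase of glycogen synthase (-0.60), fell. In Prlr-/- islets 3 rose, Ugp2, which makes UDP-glucose (0.80), Ppp1cc (0.70) and Phkb (0.60). Of 21 measured HIF-1 target genes, 0 passed at P9.5, with P4ha1 and P4ha2 (both 0.43) the largest. Pgk1 and Ero1a rose with pregnancy in both genotypes, by 0.77 and 0.67 in Prlr+/+ and by 1.10 and 0.93 in Prlr-/- islets. Bnip3 (0.60) rose and Egln3 (-0.60) fell in Prlr+/+ islets, and in Prlr-/- islets Slc2a1 (0.60) rose and Adm (-0.63) fell.

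Of 28 measured bHLH factors and Id proteins, the family of Tcf24, 0 passed at P9.5, and the largest in size was Id4 (-0.47). Id2, Bhlha15 and Neurod1 rose with pregnancy in both genotypes, by 0.90, 0.77 and 0.63 in Prlr+/+ and by 0.93, 0.93 and 0.63 in Prlr-/- islets, and Id4 (0.70) rose in Prlr+/+ islets. Genes induced by glucocorticoids and progestins, listed because of the pellet, numbered 19 measured, and 0 passed at P9.5 (largest Tat, 0.77, adjusted p = 0.694 in limma). With pregnancy 4 of the 19 fell, 0 rose and 15 did not pass in each genotype, and the list's median was -0.13 in Prlr+/+ and -0.10 in Prlr-/- islets. Zbtb16 (-1.50 in Prlr+/+ and -1.40 in Prlr-/- islets) and Fkbp5 (-0.93 and -0.80) fell in both, Per1 and Klf15 (both -0.67) in Prlr+/+ islets, and Mt1 (-0.67) and Sult1a1 (-0.60) in Prlr-/- islets. Of 24 measured immediate early and stress genes, 1 passed at P9.5, Myc, which was lower in Prlr-/- islets (-1.53, adjusted p = 0.0117), and which did not pass without Prlr+/+ P9.5 replicate 2 (-1.55, adjusted p = 0.0541). Myc rose in Prlr+/+ islets (1.20), and Jun rose in both (0.90 and 0.83).

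Since the arrays measured whole islets, fewer cells of a type and less RNA per cell cannot be told apart. The defining markers of beta cells were high in every array, with a list mean of 10.41 to 10.68 over 15 genes. Single markers of this list nevertheless moved with pregnancy. In Prlr+/+ islets Pcsk1 (0.77), Neurod1 (0.63) and Ucn3 (0.60) rose, and Nkx6-1 (-0.73), Mafa (-0.67) and Nkx2-2 (-0.60) fell. In Prlr-/- islets Neurod1 (0.63) and Ucn3 (0.60) rose and 0 fell. At P9.5 and in NP islets 0 of 100 markers passed in limma between the genotypes, and 10 and 15 had an unadjusted p under 0.05. Few of all probe sets passed either, at P9.5 0.0253% as higher and 0.206% as lower in Prlr-/- islets. At P9.5, where the members were higher in Prlr-/- islets, the mean over 16 immune markers was 5.99 to 6.11 in Prlr-/- and 6.14 to 6.21 in Prlr+/+ islets, and thus lower in the former. The 12 ductal markers were at 6.97 to 7.03 and 6.88 to 6.97, the 16 stromal markers at 6.68 to 6.82 and 6.57 to 6.93, and the 12 endothelial markers at 7.59 to 7.69 and 7.40 to 7.65. The ductal means touched at 6.97 and were otherwise higher in Prlr-/- islets, and the stromal and endothelial means overlapped. The 8 markers of other endocrine cells were at 10.09 to 10.20 and 9.85 to 10.10, which overlapped at one end. Only 1 of 3 erythroid markers was measured, with the same range of 5.4 to 5.8 in both genotypes.

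Acinar markers, from the exocrine tissue around islets, moved with pregnancy in Prlr-/- islets in the direction opposite to the members. Their mean over 20 genes was 10.10 to 11.08 in NP and 8.64 to 10.20 in P9.5 Prlr-/- islets, and 13 of the 20 fell and 1 rose. In Prlr+/+ islets it was 9.78 to 10.30 and 9.09 to 10.22, and 0 fell and 1 rose. The P9.5 Prlr-/- array with the most acinar signal, replicate 1, was at 7.3 for Cd44, 7.0 for Tcf24, 5.9 for Ppp1r3c and 10.0 for Btg1. In the same order replicate 2 was at 7.3, 7.0, 5.7 and 10.3. Replicate 3 was at 7.6, 7.1, 6.1 and 10.3, the highest or tied for it in each member. A relation between acinar signal and member level within the group was not tested. The endothelial markers that passed were higher with pregnancy in Prlr-/- islets and lower in Prlr+/+ islets. In Prlr-/- islets 2 of the 12 rose, Emcn (0.77) and Tek (0.63), 0 fell, and the list mean was 7.47 to 7.52 in NP and 7.59 to 7.69 in P9.5 arrays, which did not overlap. Among Prlr+/+ arrays 2 fell, Eng and Plvap (both -0.67), 0 rose, and the list mean was 7.68 to 7.80 in NP and 7.40 to 7.65 in P9.5 arrays. Of the 16 immune markers, H2-Aa (0.63) rose in Prlr-/- and Cd74 (-0.77) fell in Prlr+/+ islets, and of the 16 stromal markers Sparc (-0.63) fell in Prlr+/+ islets. Of the 12 ductal markers, Krt7 (-0.80) and Krt8 (-0.60) fell in Prlr+/+ islets, and Tspan8 (1.00) rose and Muc1 (-0.90) fell in Prlr-/- islets. The parts of acinar, endothelial and other non-beta-cell RNA in the members' differences were not tested.

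**Figure D4:**
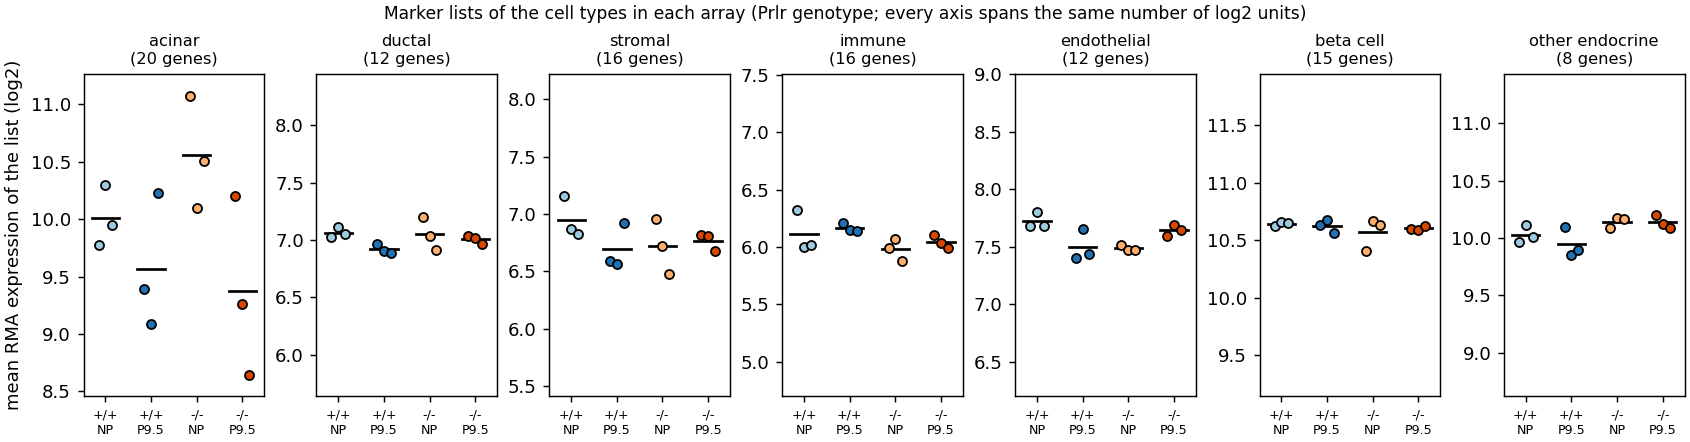
Mean RMA log2 expression of each marker list (vertical axis, each spanning the same number of log2 units) in the 12 arrays by Prlr genotype and stage (horizontal axis); points are replicates and lines are group means. Acinar markers spread most and are lowest in 1 P9.5 Prlr-/- array (8.64), while the beta cell list stays between 10.41 and 10.68.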

How the data were processed

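Total RNA of islets was hybridised to MoGene_1.0_ST arrays. The authors ran RMA with aroma.affymetrix on the raw arrays and deposited log2 expression per probe set, rounded to 0.1 (1.7 to 14.7). Background correction and normalization are thus part of every value, and small differences move in steps of 0.1. Array precision is limited by 3 arrays per group. Of 35511 probe sets, 21789 carry 1 gene symbol in the array annotation, 1621 several and 12101 none; the genome build of the probe sets is not given in the sources used here.

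Groups and replicates came from the labels. One linear model with 4 group means was fitted to all probe sets in R 4.3.3 with limma 3.58.1 (lmFit, eBayes), with Benjamini-Hochberg adjustment over all probe sets; a call needs an adjusted p under 0.05 and a fold change of at least 1.5. A gene was read from its brightest probe set. Members, lists and tests were chosen with earlier results of these data known. Named genes were the members, the 5 genes most correlated with each, and from each list the called genes and up to 3 with the largest difference. P-values are given for members only in NP islets, whose arrays are outside the contrast that chose them but share its estimate of the spread. Whether the replicate numbers pair the arrays was checked by the correlation of deviations from group means, which was over 0.1 in 7 of 18 same-numbered pairs. This count was not set against differently numbered pairs, so it does not settle whether arrays share a replicate effect. The fit used has no block. A replicate block was run as an alternative, and with it 1 of the 4 members was past both thresholds at P9.5. The script was tested on simulated data. Alternatives were other normalizations, filters, fold minimums, array weights, left-out arrays and, added after seeing the data, noise of up to 0.05 to undo the rounding. Figures were drawn with matplotlib 3.10.9.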

Additional observations from a re-analysis of the deposited data

Results flagged for a closer look

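Tcf24 and Btg1 drew a closer look because every P9.5 array lay on one side of its own genotype's NP mean in Prlr+/+ islets and on the other side in Prlr-/- islets. For Tcf24 the Prlr+/+ arrays lay at -0.23 and the Prlr-/- arrays at 0.70 to 0.80, and the differences with pregnancy were 0.97 apart. Its Prlr+/+ side rests mostly on 1 array, since the difference was -0.05 without NP replicate 3. The P9.5 Prlr+/+ arrays of Tcf24 had the same value as NP replicate 1, 6.1. For Btg1 the Prlr+/+ arrays lay at -0.57 to -0.27 and the Prlr-/- arrays at 0.10 to 0.40, and the differences were 0.70 apart. The difference between the genotypes was not tested, because the P9.5 arrays had chosen the members. How many of all probe sets lie on opposite sides in this way was not counted.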

How the results depend on the processing

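Of 496 member differences recomputed under 21 alternatives, 463 kept their sign, 7 turned, 5 became 0 and 21 were those of Ppp1r3c with pregnancy in Prlr+/+ islets, which was 0 in the fit used (-0.05 to 0.094). The Btg1 difference in NP islets was -0.017 without Prlr-/- NP replicate 1 and -0.067 with median centring, that of Tcf24 was 0.067 without Prlr-/- NP replicate 2 and 0.15 without Prlr+/+ NP replicate 3 (-0.15 to 0.15 over all arrays left out in turn), the mean difference of Btg1 with pregnancy was 0.067 with median centring, and the difference of Cd44 with pregnancy in Prlr+/+ islets was 0.017 without Prlr+/+ P9.5 replicate 3 and 0.033 with median centring. None of these 4 differences was past the thresholds in the fit used. That centring added 0.17 to every difference with pregnancy in Prlr-/- islets and 0.07 in Prlr+/+ islets, and moved the median of all probe sets in Prlr-/- islets from -0.07 to 0.10. It also shifted every genotype difference in NP islets by -0.1.

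The choice of the members depended on the fit more than their differences did. Of the 4, 1 was past both thresholds at P9.5 with a replicate block and 1 with only the groups compared, and 0 to 4 without 1 array at a time (of the P9.5 arrays, 0 when replicate 3 of Prlr-/- or replicate 1 or 3 of Prlr+/+ was left out, 1 for replicate 1 of Prlr-/- or replicate 2 of Prlr+/+, and 2 for replicate 2 of Prlr-/-, as also for NP replicate 2 of Prlr-/-). With the block, 0 members passed in NP islets and 0 in the mean over genotypes. Over 23 alternatives Tcf24 was past both thresholds in 17, Cd44 in 16, Btg1 in 15 and Ppp1r3c in 13, while the P9.5 differences stayed between 0.88 and 0.95, 0.60 and 0.75, 0.65 and 0.83, and 0.60 and 0.80. In the mean over genotypes 1 member, Cd44, was past the thresholds at a fold minimum of 1 or 1.3. Of the related genes, the 4 calls at P9.5 became 0 with only the groups compared and 1 to 4 without 1 array (2 without Prlr+/+ P9.5 replicate 2, 1 of them Hapln1, which was then higher). The 30 calls with pregnancy in Prlr+/+ islets became 55 and 46 at a fold minimum of 1 and 1.3, and the 33 in Prlr-/- islets became 73 and 62. Counts over all probe sets ranged from 0 to 172 in NP islets (36 in the fit used), 39 to 118 at P9.5 (82), 1898 to 7745 (3528) and 2513 to 11846 (5159) with pregnancy in Prlr+/+ and Prlr-/- islets, and 1790 to 16169 in the mean (4107). Each member has 1 probe set, so averaging probe sets could not change a value, and the mean over genotypes uses all arrays, so fitting only the groups compared was not run for it. With 3 arrays against 3, an exact test could not go below p = 0.1.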
